A study of Mus musculus with 8 samples.

Results

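The enzymes that break glucose down and store it as glycogen were followed in mouse primary hepatocytes with and without Lcmr1, whose current symbol is Med19 and which encodes a subunit of the Mediator complex. The members were taken by gene name from the deposited count table, and all 28 names were found among its 27277 genes. They fall into 5 liver isoforms and regulators, 7 isoforms of other tissues or of most cells, 7 genes of the steps shared by all cells and 9 genes of glycogen metabolism. A low-count filter kept 15135 genes for testing, and all 28 members were kept. The name Aldoa stands in 2 rows of the table, and the second row (ENSMUSG00000114515) had at most 3 counts in a library and was not tested.

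The hepatocytes came from control mice carrying floxed alleles (Lcmr1f/f) and from knockout mice carrying the same alleles with albumin-cre, which drives deletion in hepatocytes (Lcmr1f/f * albumin-cre). Age and sex of the mice are not stated. All cells were isolated by digestion of the liver, cultured for 24 h and given 100 nM glucagon, the fasting hormone, for 12 h, so every value below is one under glucagon and no library without it was compared. RNA was sequenced from 3 libraries per genotype, with 22191786 to 26595249 counts each, and chromatin immunoprecipitation (ChIP) was done in 1 library per genotype. The labels do not state whether numbered libraries stem from different mice, and the p-values thus cover the spread among these libraries, which may be technical.

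As background, glycolysis turns glucose into pyruvate, and the liver runs it with its own set of isoforms. The hepatocyte takes glucose up through Slc2a2, phosphorylates it with a liver hexokinase held in check by Gckr, and commits it at phosphofructokinase (Pfkl) and at pyruvate kinase (Pklr). Other cell types use Slc2a1, Hk1, Hk2, Pfkm, Pfkp, Pfkfb3 and Pkm for the same steps. Glycogen is built by Ugp2, Gys2 and Gbe1 and broken down by Pygl, while phosphoglucomutase joins both routes to glycolysis. Proteins of the Ppp1r3 family bring protein phosphatase to the glycogen particle, where it switches glycogen synthase on and phosphorylase off. Glucagon is known to turn the liver from storing glycogen to releasing glucose.

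Promoter sequences of 4 members on which the results turn are shown, as the 250 bases upstream of the start in RefSeq (GRCm38.p6, 5′ to 3′ on the strand of the gene). Slc2a2 is shown because it had the largest fall, Gpi1 because its rise passed the test whichever library was left out, and Pygl and Ppp1r3c because a ChIP region of the control cells covered the whole window. Some members not shown meet the same reasons, Pgam1 among them for both its rise and its region. They are given in lower case, with capitals for any match, on either strand, to the E-box CACGTG, to the TATA motif TATAAA or to the GC-box core GGGCGG, which reads CCGCCC on the opposite strand; none overlaps another in these windows.
Slc2a2, chr3:28697653-28697902, plus strand: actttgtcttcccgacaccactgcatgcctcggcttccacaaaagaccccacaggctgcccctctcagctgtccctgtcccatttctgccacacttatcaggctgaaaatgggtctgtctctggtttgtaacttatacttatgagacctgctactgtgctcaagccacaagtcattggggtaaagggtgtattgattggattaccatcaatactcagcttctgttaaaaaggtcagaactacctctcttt
Gpi1, chr7:34230337-34230586, minus strand: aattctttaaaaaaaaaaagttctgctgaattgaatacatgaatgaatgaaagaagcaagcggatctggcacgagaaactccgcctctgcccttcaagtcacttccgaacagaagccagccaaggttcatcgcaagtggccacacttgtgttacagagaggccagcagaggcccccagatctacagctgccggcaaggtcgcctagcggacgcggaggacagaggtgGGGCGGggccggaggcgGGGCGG
Pygl, chr12:70227684-70227933, minus strand: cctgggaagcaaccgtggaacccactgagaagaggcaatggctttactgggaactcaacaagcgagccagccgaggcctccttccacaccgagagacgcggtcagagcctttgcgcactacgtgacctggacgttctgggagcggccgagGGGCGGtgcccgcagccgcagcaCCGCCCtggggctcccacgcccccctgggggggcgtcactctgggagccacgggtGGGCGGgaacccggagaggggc
Ppp1r3c, chr19:36736605-36736854, minus strand: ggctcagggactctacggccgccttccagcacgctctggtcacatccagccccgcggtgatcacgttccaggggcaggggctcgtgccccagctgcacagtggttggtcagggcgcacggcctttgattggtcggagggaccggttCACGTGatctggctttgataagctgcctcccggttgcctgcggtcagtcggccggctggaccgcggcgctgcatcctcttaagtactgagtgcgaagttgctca
Slc2a2 holds none of these motifs in its window. Gpi1 holds GGGCGG at bases -23 and -6 from the start, and Pygl holds it at bases -100 and -22 and, on the other strand, at -77. Ppp1r3c holds the E-box CACGTG at base -104. Of the 28 members, 26 had a RefSeq promoter entry, with 41 windows in all. CACGTG lay in 3 of these 41 windows (7.32%, Ppp1r3c, Pfkm and Pfkfb3), beside 6.02% of the 32851 windows of all genes. TATAAA lay in 3 windows (7.32%, Pklr, Pfkfb1 and Pgm2), beside 12.4% of all windows, and GGGCGG in 20 (48.8%), beside 32.7%. Some windows of Aldoa and of Eno1 overlap, so the same GGGCGG site is counted more than once there. By gene, GGGCGG lay in 16 of the 26 members, and no count by gene was made for all genes. A match describes the letters of a window and shows neither a bound site nor a cause.

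The targeted gene was checked first. Med19 had counts of 154, 226 and 248 in the controls and, in the knockouts, of 90, 166 and 97, so that every knockout library lay below every control. Its log2 fold change was -1.495 (SE 0.31, with an edgeR adjusted p of 0.012), and the edgeR adjusted p rose to 0.0507 in 1 of the 6 fits that left out a library, the one without knockout replicate 1. These counts cover the whole gene, which overlaps Zdhhc5 and Tmx2 on the opposite strand, and not the deleted part alone. Levels below are CPM, counts scaled to a common library size after TMM, and a member was said to rise or fall where its edgeR adjusted p over all 15135 genes was under 0.05. The scaling matters here: with library size alone the median over all genes went from a log2 fold change of 0.01 to one of 0.60, so each change is one relative to the bulk of genes. In bulk RNA, fewer cells of a type and less RNA per cell cannot be told apart.

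Control replicate 1 stood apart from the other controls, and the glycogen genes were among those where it did. The chi-square per degree of freedom between libraries was 150 and 143 for control replicate 1 against control replicates 2 and 3, but 7.41 between the latter pair. Between knockout libraries it was 29.4 (replicates 1 and 2), 27.3 (replicates 1 and 3) and 54.7 (replicates 2 and 3). Control replicates 2 and 3 were thus closer to each other than any pair of knockout libraries. Its level was under 0.667 of the mean of the other controls in 13 of 28 members (46.4%), beside 17.7% of all genes tested, a limit chosen after the values were seen. These were 7 of the 9 glycogen genes, 4 of 7 isoforms of other tissues, 2 of 5 liver genes and none of the 7 shared steps. Among the isoforms of other tissues Hk2 is counted on 14, 14 and 26 control counts, and there control replicate 2 was as low as control replicate 1. Ppp1r3c stood lowest in that library, at 0.267 of the mean of the other controls. Results that turn on this library are given with and without it. The fits without it leave control replicates 2 and 3 alone, so their adjusted p-values rest partly on the narrow spread of that pair.

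Marker genes of cell types were read on the same TMM scale. A shift in the mix of cells and a change within cells cannot be told apart by them. Of 9 hepatocyte markers tested, 8 fell and none rose, and their summed level went from 109500 to 126100 CPM in the controls to 31730 to 41130 CPM in the knockouts. Of 15 macrophage markers, 10 rose and none fell (445 to 532 CPM against 857 to 1013 CPM). One marker rose in each of the endothelial list (10 tested), the stellate or fibroblast list (10 tested) and the bile duct list (6 tested), 1 of 4 erythroid markers fell, and none of 6 lymphocyte markers passed. The summed stellate markers were 124 to 217 CPM in the controls and 233 to 273 CPM in the knockouts. Bile duct markers summed to 198 CPM in control replicate 1 and to 67.7 and 77.5 CPM in the other controls. No marker was at 0 in all controls. The part of these shifts in the results below was not tested.

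Of the 28 members, 5 rose (17.9%, beside 12.6% of all genes tested) and 4 fell (14.3%, beside 13.0%). Gpi1, Pgam1, Pfkl, Pkm and Pgm1 rose, and Slc2a2, Pfkfb1, Pgm2 and Gapdh fell. In 7 members every knockout library lay above every control (25.0%, beside 23.5% of all genes), and in 4 every one lay below (14.3%, beside 22.4%). These shares lie near the background, so the counts alone do not set the members apart. The median log2 fold change was 0.08 over the members and 0.01 over all genes tested. By role the medians were -0.38 for the liver genes, 0.45 for isoforms of other tissues, 0.16 for the shared steps and -0.14 for glycogen genes. With library size alone they were 0.19, 1.04, 0.75 and 0.43, so the sign of the liver and glycogen medians flips. Leaving out control replicate 1 made them -0.72, 0.26, 0.17 and -0.39. Without control replicate 1, 7 members rose (25.0%, beside 15.8% of all genes) and 7 fell (25.0%, beside 16.3%).

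**Figure D1:**
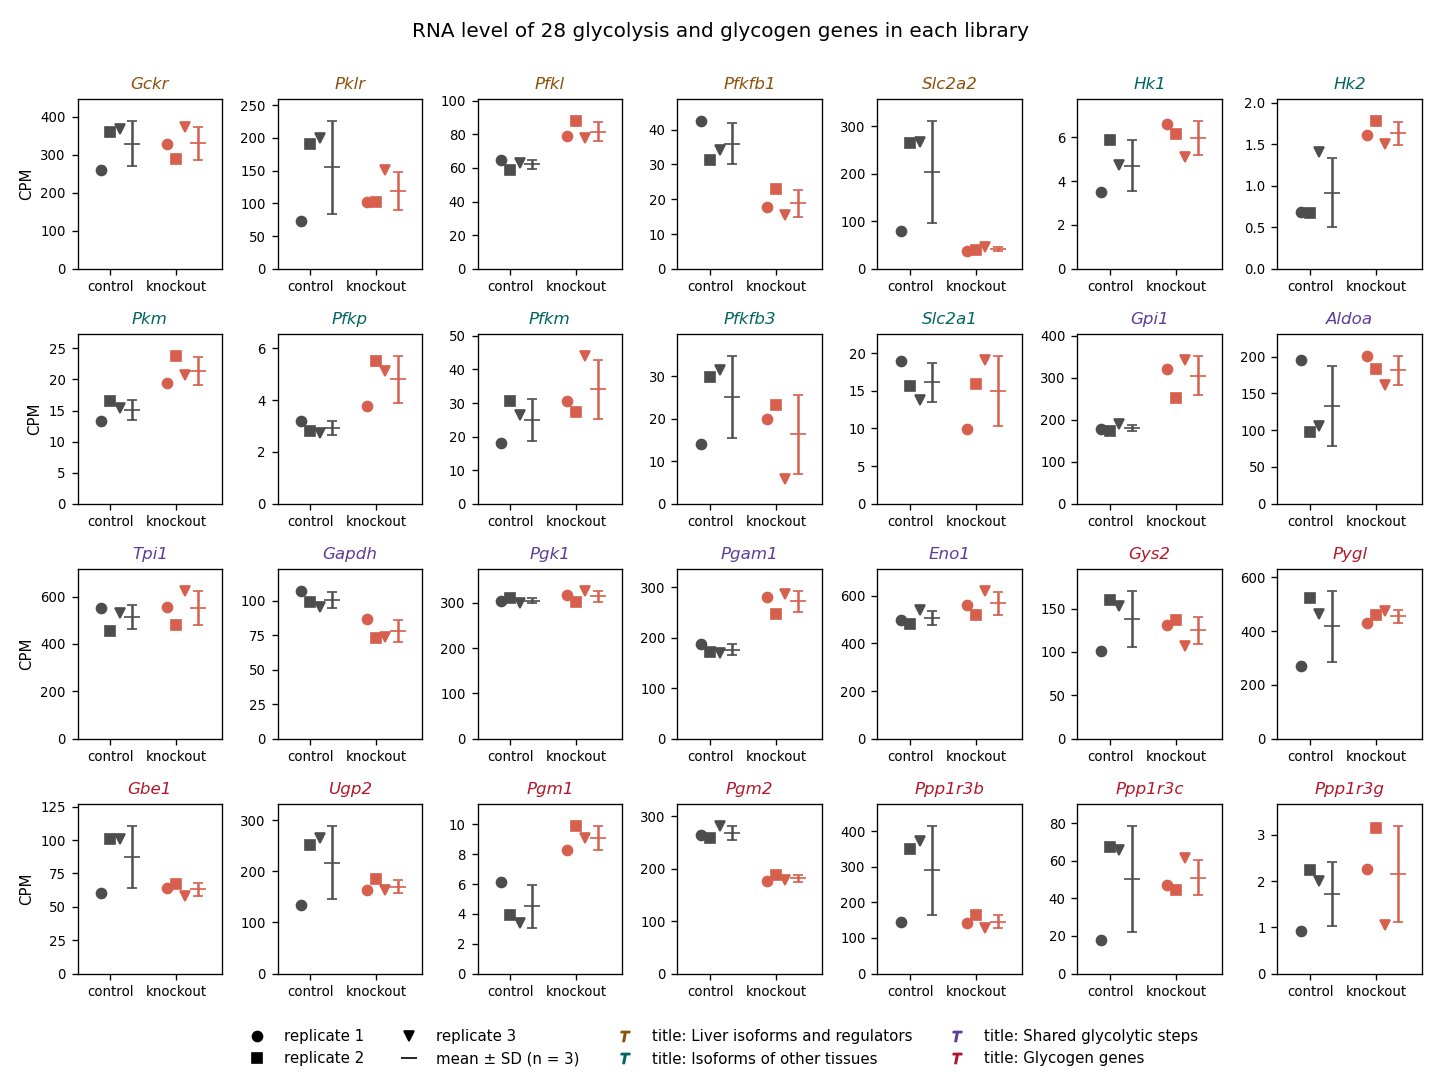
Level of each of the 28 members in every library, in CPM over TMM-scaled library sizes (vertical axes start at 0); points are libraries, shapes give the replicate number, and bars give the mean ± SD of 3 libraries. On this TMM scale Slc2a2, Pgm2, Pfkfb1 and Gapdh lie lower in all knockout libraries, and with library size alone the log2 fold changes of Gapdh and Pgm2 turn positive and the groups of Pfkfb1 overlap and no longer pass the test; control replicate 1 (circles) lies low for most glycogen genes.

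Among the liver genes, the glucose transporter Slc2a2 (ENSMUSG00000027690, chr3:28697903-28731359, plus strand, mm10) had the largest change of all members. Its level was 79.9, 264 and 266 CPM in the controls and 37.8, 39.0 and 46.0 CPM in the knockouts. The knockout libraries lay within a narrow range, and all were below the lowest control, which was control replicate 1. The log2 fold change was -2.31 (SE 0.46, with an edgeR adjusted p of 0.0143), a level of 0.201 of the control. Without control replicate 1 it was -2.70 (edgeR adjusted p = 1.14e-05). The call ended without knockout replicate 1 (log2 fold change -2.27, edgeR adjusted p = 0.0523) and with no count filter (edgeR adjusted p = 0.0761). With library size alone the fall remained past the threshold, at -1.75 (edgeR adjusted p = 0.0224). In the same libraries 8 of 9 hepatocyte markers fell, and the part of that shift in the Slc2a2 result was not tested.

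Pfkfb1 encodes the liver form of the enzyme that makes and removes the main activator of phosphofructokinase, and it fell. It stood at 42.5, 31.2 and 34.1 CPM in the controls and at 17.8, 23.0 and 15.6 CPM in the knockouts. The groups did not overlap, and control replicate 1 was here the highest control. The log2 fold change was -0.94 (SE 0.18, with an edgeR adjusted p of 0.00942), and it passed in all 6 fits that left out a library. With library size alone it was -0.35 and did not pass (edgeR adjusted p = 0.0995). Part of Pfkfb1 overlaps Apex2 on the opposite strand, and no source used here gives the strand setting of the counting.

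Pfkl, the liver subunit of phosphofructokinase, rose slightly. Its level was 64.4, 58.8 and 62.9 CPM in the controls and 78.7, 87.9 and 77.5 CPM in the knockouts. The groups did not overlap, and the log2 fold change was 0.39 (SE 0.10, with an edgeR adjusted p of 0.0287). It passed without control replicate 1, at 0.42 (edgeR adjusted p = 0.0163). In the other 5 fits that left out a library it did not pass, with log2 fold changes from 0.32 to 0.41.

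Pklr, the liver pyruvate kinase, was 73.3, 191 and 200.2 CPM in the controls and 102, 103 and 152 CPM in the knockouts. All knockout libraries lay between control replicate 1 and the other controls. The log2 fold change was -0.38 (SE 0.38, with an edgeR adjusted p of 0.496), and with library size alone it was 0.19. Without control replicate 1 Pklr fell by 0.72 on the log2 scale, with an edgeR adjusted p of 0.0184. Pklr overlaps Hcn3 on the opposite strand. Gckr, which encodes the nuclear partner that restrains the liver hexokinase, was 261, 360.1 and 368 CPM in the controls and 329, 288 and 373 CPM in the knockouts. The groups overlapped, with a log2 fold change of 0.00 (SE 0.17, with an edgeR adjusted p of 0.994).

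Among the isoforms of other tissues, only Pkm passed in the fit of all libraries, and the marker lists of macrophages moved in the same direction. Pkm, the pyruvate kinase of most cells other than hepatocytes, was 13.3, 16.4 and 15.5 CPM in the controls and 19.5, 23.8 and 20.6 CPM in the knockouts. Its groups did not overlap, and its log2 fold change was 0.50 (SE 0.14, with an edgeR adjusted p of 0.0376). It passed without control replicate 1, at 0.42 (edgeR adjusted p = 0.0478), and in none of the other 5 fits that left out a library (log2 fold changes from 0.40 to 0.57). The summed macrophage markers were 445 to 532 CPM in the controls and 857 to 1013 CPM in the knockouts, and their part in the Pkm result was not tested.

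Pfkp, the platelet subunit of phosphofructokinase, was 3.21, 2.81 and 2.75 CPM in the controls and 3.78, 5.496 and 5.14 CPM in the knockouts. The knockout libraries lay above the controls, with a log2 fold change of 0.72 (SE 0.23) just outside the threshold (edgeR adjusted p = 0.0541). It passed without control replicate 1, at 0.79 (edgeR adjusted p = 0.0441), and in DESeq2 (adjusted p = 0.0315). Pfkp overlaps Pitrm1 on the opposite strand, which had 7241 counts in all libraries together. Hk2, the hexokinase of muscle and of growing cells, was 0.682, 0.667 and 1.40 CPM in the controls and 1.61, 1.78 and 1.496 CPM in the knockouts. These levels rest on counts of 14, 14 and 26 in the controls and, in the knockouts, of 50, 56 and 48, and the groups did not overlap. The log2 fold change of Hk2 was 0.84 (SE 0.36, with an edgeR adjusted p of 0.127), and 0.67 without control replicate 1.

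The remaining isoforms of other tissues did not pass in any fit that left out a library. Hk1, the hexokinase of most tissues, had levels of 3.51 to 5.87 CPM in the controls and 5.11 to 6.62 CPM in the knockouts (log2 fold change 0.34, SE 0.24). Pfkm, the muscle subunit of phosphofructokinase, lay at 17.97 to 30.5 CPM and 27.4 to 44.0 CPM (log2 fold change 0.45, SE 0.24), and it overlaps Senp1 on the opposite strand. In both genes control replicate 1 was the lowest library, and without it the log2 fold changes were 0.17 for Hk1 and 0.26 for Pfkm. Slc2a1, a glucose transporter of other cell types, was 18.9, 15.6 and 13.8 CPM in the controls and 9.91, 15.9 and 19.1 CPM in the knockouts. Its groups overlapped fully, and its log2 fold change of -0.11 (SE 0.25) was 0.49 with library size alone and 0.02 without control replicate 1. Pfkfb3, the inducible form of the enzyme that Pfkfb1 encodes in liver, was 13.98, 29.8 and 31.6 CPM in the controls and 19.8, 23.3 and 5.74 CPM in the knockouts. Its lowest value was that of knockout replicate 3, and the log2 fold change was -0.62 (SE 0.55, with an edgeR adjusted p of 0.445), and -0.91 without control replicate 1.

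**Figure D2:**
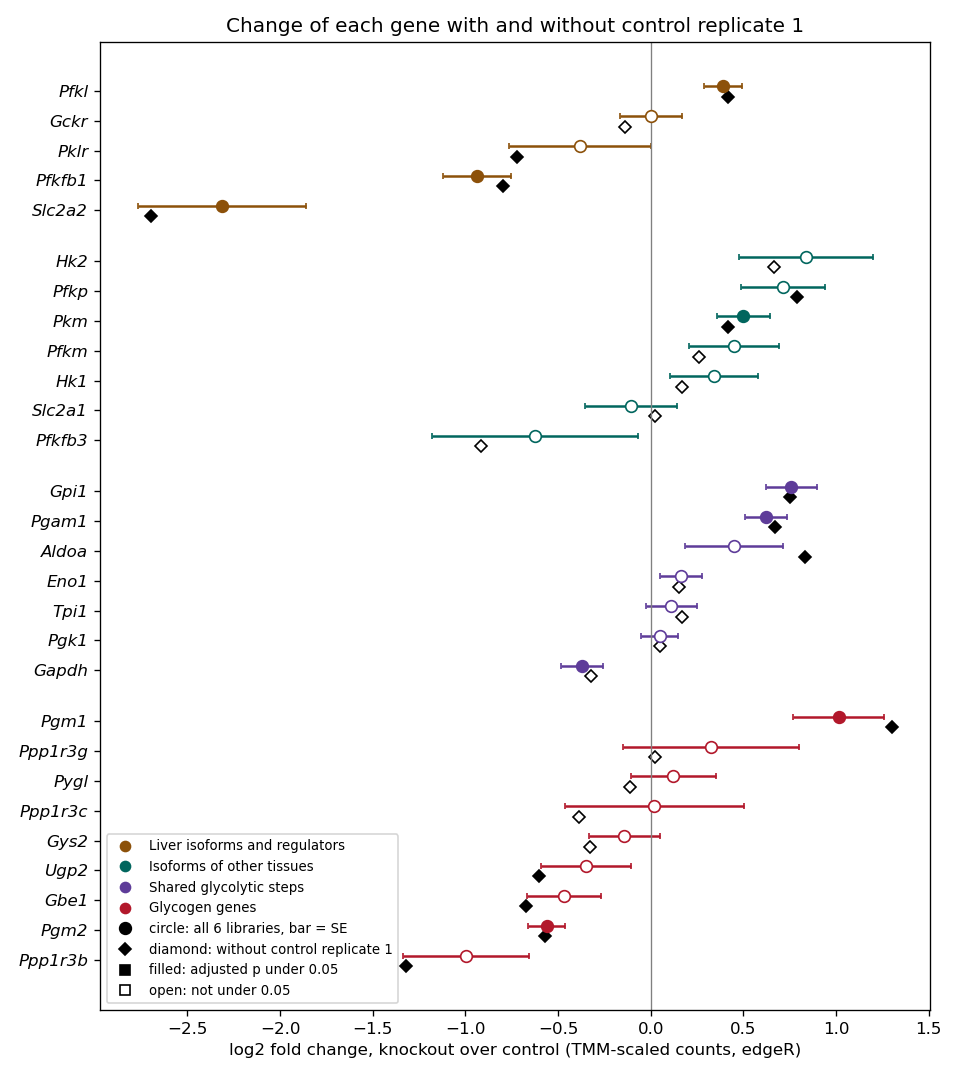
Log2 fold change of each member, knockout over control, from the edgeR fit of all 6 libraries (circles, with SE as bars) and from the fit without control replicate 1 (diamonds); filled symbols have an adjusted p under 0.05. Leaving that library out adds Pklr, Gbe1, Ugp2 and Ppp1r3b to the genes that fell and Aldoa and Pfkp to those that rose, and ends the call of Gapdh; with library size alone the signs of Pklr, Gbe1, Ugp2, Gys2, Slc2a1, Gapdh and Pgm2 turn positive.

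Ratios of counts within a library do not depend on library scaling, and 7 pairs of members were compared in this way. Slc2a1 over Slc2a2 was the pair whose groups did not overlap. Its log2 ratio was -2.08, -4.08 and -4.27 in the controls and, in the knockouts, -1.93, -1.29 and -1.27. The ratio was 3.94-fold higher in the knockouts (difference 1.98 on the log2 scale), but the highest control, replicate 1, lay close to the lowest knockout. The exact two-sided permutation p was 0.1, the smallest that 3 against 3 libraries allow, and 0.35 after Benjamini-Hochberg adjustment over the 7 pairs. Without control replicate 1 the difference was 2.68.

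The other 6 pairs overlapped between genotypes. Pkm over Pklr had log2 ratios of -2.46, -3.54 and -3.69 in the controls and, in the knockouts, -2.39, -2.11 and -2.88, a difference of 0.78 (exact permutation p = 0.2, adjusted 0.35). Control replicate 1 lay among the knockouts for this pair, and without it the difference was 1.16. Hk2 over Hk1 differed by 0.55 (exact permutation p = 0.4), Pfkp over Pfkl by 0.31 (exact permutation p = 0.2), Pfkfb3 over Pfkfb1 by 0.17 (exact permutation p = 0.5) and Pfkm over Pfkl by 0.06 (exact permutation p = 0.8). The last 2 pairs change sign without control replicate 1, to -0.33 and -0.18. Gys2 over Pygl, the synthase over the phosphorylase of liver glycogen, differed by -0.30 (exact permutation p = 0.2). The design could not reach a p under 0.1 for any pair.

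**Figure D3:**
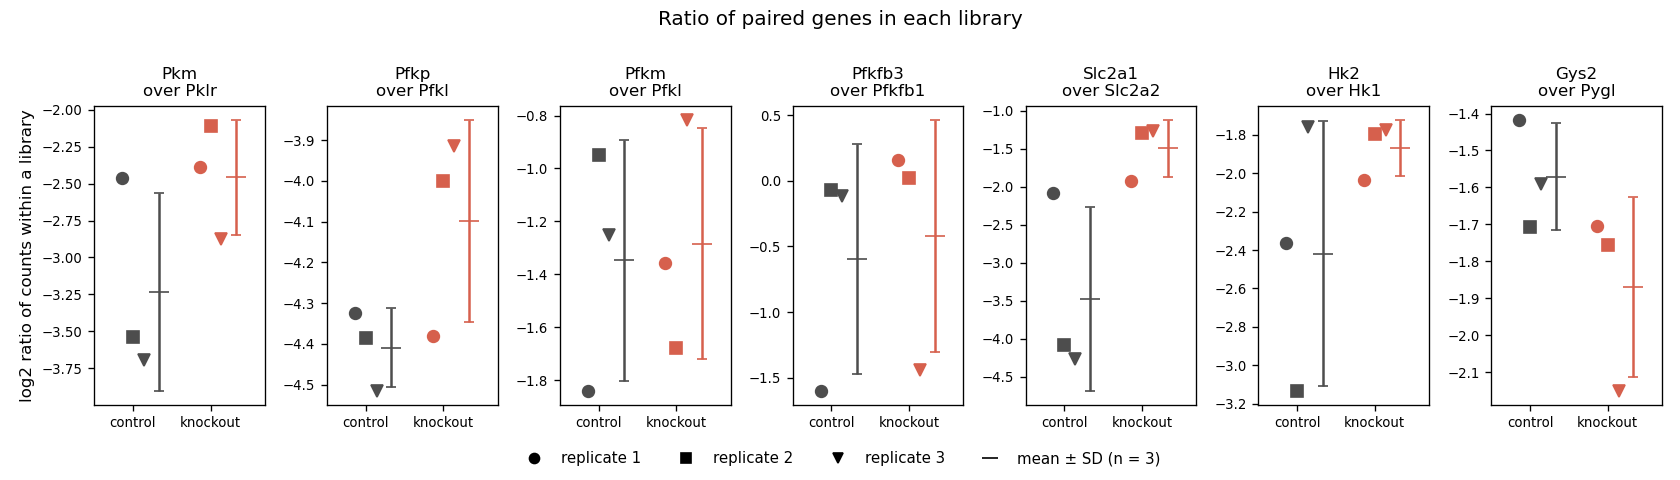
Log2 ratio of the counts of paired genes in each library (points; shapes give the replicate number) with the mean ± SD of 3 libraries per genotype. For Slc2a1 over Slc2a2 the knockouts lie from -1.93 to -1.27 and control replicate 1, at -2.08, lies nearer to them than to the other controls.

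Of the 7 genes of the shared steps, 2 rose, 1 fell and 4 did not pass. Gpi1, which interconverts the phosphates of glucose and fructose, was 179, 173 and 189 CPM in the controls and 321, 252 and 342 CPM in the knockouts. Its log2 fold change was 0.76 (SE 0.14, with an edgeR adjusted p of 0.00713), or 1.69-fold. Pgam1, the phosphoglycerate mutase of lower glycolysis, was 189, 171 and 169.9 CPM in the controls and 281, 248 and 287 CPM in the knockouts. Its log2 fold change was 0.62 (SE 0.11, with an edgeR adjusted p of 0.00698), or 1.54-fold. Both genes had controls within a narrow range and knockouts all above it, and both passed in all 6 fits that left out a library and with library size alone.

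Gapdh, often used as a reference gene, fell in the fit of all libraries. It was 107, 99.3 and 95.4 CPM in the controls and 87.0, 73.3 and 73.7 CPM in the knockouts, and the groups did not overlap. The log2 fold change was -0.37 (SE 0.11, with an edgeR adjusted p of 0.0482), and it was 0.22 with library size alone. It passed in none of the 6 fits that left out a library, with log2 fold changes from -0.46 to -0.32 and edgeR adjusted p up to 0.13. Gapdh overlaps Iffo1 on the opposite strand.

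Aldoa, the aldolase of muscle and most cells, was 195, 97.9 and 106 CPM in the controls and 200.4, 183 and 161 CPM in the knockouts. Control replicate 1 stood among the knockout libraries, at 1.92 times the mean of the other controls. With all libraries the log2 fold change was 0.45 (SE 0.26, with an edgeR adjusted p of 0.249), and without control replicate 1 Aldoa rose by 0.83 (edgeR adjusted p = 0.00133). Pgk1, Eno1 and Tpi1 stayed within a narrow range. Pgk1 lay at 299 to 309.9 CPM in the controls and 302 to 325 CPM in the knockouts (log2 fold change 0.05, SE 0.10). Eno1 lay at 482 to 541 CPM and 522 to 622 CPM (log2 fold change 0.16, SE 0.12), and its near-identical copy Eno1b could share reads with it. Tpi1 lay at 455 to 552 CPM and 479.9 to 622 CPM (log2 fold change 0.11, SE 0.14), and it overlaps Spsb2 on the opposite strand. None of the 3 passed, and with library size alone all 3 did, at 0.64, 0.75 and 0.71, each near the median of all genes under that scaling.

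Of the 9 glycogen genes, 7 were low in control replicate 1, all but the phosphoglucomutase genes. The latter carry swapped names in the table: the gene listed as Pgm2 (ENSMUSG00000025791, chr4:99929414-99987294, plus strand) now has the symbol Pgm1, and the gene listed as Pgm1 (ENSMUSG00000029171, chr5:64092950-64128351, plus strand) now has the symbol Pgm2. The listed names are kept here. The chromosome 4 gene encodes the main phosphoglucomutase, and the chromosome 5 gene encodes a related enzyme known for its action on pentose phosphates.

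Pgm2, on chromosome 4, was 264, 258 and 282 CPM in the controls and 177, 189 and 179 CPM in the knockouts. All controls lay above all knockouts, and control replicate 1 did not stand apart. The log2 fold change was -0.56 (SE 0.10, with an edgeR adjusted p of 0.0071), and it passed in all 6 fits that left out a library; with library size alone it was 0.03. Pgm1, on chromosome 5, moved the other way, from 6.14, 3.96 and 3.39 CPM in the controls to 8.27, 9.91 and 9.10 CPM in the knockouts. The groups did not overlap, and the log2 fold change was 1.01 (SE 0.25, with an edgeR adjusted p of 0.022), or 2.02-fold. It passed without control replicate 1, at 1.30 (edgeR adjusted p = 0.00179), and in none of the other 5 fits that left out a library (log2 fold changes from 0.85 to 1.07).

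Ppp1r3b, which encodes the main liver protein that brings phosphatase to glycogen, passed the edgeR test without control replicate 1 but not with all libraries. It was 145, 351 and 373 CPM in the controls and 142, 165 and 129 CPM in the knockouts. Control replicate 1 lay within the knockout range, and the other controls lay above it. With all libraries the log2 fold change was -0.997 (SE 0.34, with an edgeR adjusted p of 0.0731), and without control replicate 1 Ppp1r3b fell by 1.32 on the log2 scale, with an edgeR adjusted p of 0.000143. DESeq2 on all 6 libraries gave an adjusted p of 0.0114. With library size alone the log2 fold change was -0.43 (edgeR adjusted p = 0.336).

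Of the enzymes that build glycogen, Ugp2 and Gbe1 showed a similar arrangement. Ugp2, which makes the activated glucose for glycogen, was 134, 252 and 265 CPM in the controls and 163, 184 and 163 CPM in the knockouts. Gbe1, the branching enzyme, was 60.2, 101 and 101 CPM in the controls and 64.4, 67.4 and 57.8 CPM in the knockouts. Control replicate 1 lay below the knockouts for Ugp2 and within their range for Gbe1, and in both genes the other controls lay above all knockouts. With all libraries their log2 fold changes were -0.35 (SE 0.24) for Ugp2 and -0.47 (SE 0.20) for Gbe1, with edgeR adjusted p of 0.319 and 0.125. Without control replicate 1 both fell, Ugp2 by 0.60 (edgeR adjusted p = 0.00295) and Gbe1 by 0.67 (edgeR adjusted p = 0.00169). With library size alone the signs flipped, to 0.22 and 0.11.

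Gys2, the liver glycogen synthase, was 101, 160.0 and 154 CPM in the controls and 132, 137 and 107 CPM in the knockouts. The knockouts lay between control replicate 1 and the other controls, and Gys2 passed neither with that library (log2 fold change -0.14, SE 0.19, and 0.43 with library size alone) nor without it (-0.33, edgeR adjusted p = 0.0737). Pygl, the liver phosphorylase that glucagon switches on, was 269, 522 and 462 CPM in the controls and 429, 461 and 475 CPM in the knockouts. Its groups overlapped, with a log2 fold change of 0.12 (SE 0.23), and of -0.11 without control replicate 1. Ppp1r3c, another protein that brings phosphatase to glycogen, was 17.8, 67.7 and 65.9 CPM in the controls and 47.1, 44.6 and 61.7 CPM in the knockouts. Control replicate 1 was far below the other 5 libraries, and the log2 fold change of 0.02 (SE 0.48) was -0.39 without it (edgeR adjusted p = 0.0727). Ppp1r3g, a further member of that family, had only 19 to 47 counts in the controls and 34 to 99 in the knockouts, and its log2 fold change was 0.33 (SE 0.47), and 0.02 without control replicate 1.

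The authors' deposited table gives an adjusted p under 0.05 to 11 of the 28 members, beside 23.3% of the 18770 genes that have one there, and marks 3 as significant, beside 11.9%. In the authors' deposited table these are Slc2a2 with a log2 fold change of -2.32, Pgm1 with an adjusted p of 0.00243 and Ppp1r3b with an adjusted p of 0.0107.

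A further 47 genes of the same pathways were read as a list, of which 45 could be tested. Of these, 6 rose (13.3%, beside 12.6% of all genes tested) and 3 fell (6.7%, beside 13.0%), and the median log2 fold change was 0.14. When control replicate 1 was left out, 10 rose (22.2%, beside 15.8%) and 7 fell (15.6%, beside 16.3%). The 4 with the smallest adjusted p in each direction are named, which takes all 3 that fell. Pygb, the phosphorylase isoform known from brain, was 3.56, 4.43 and 3.77 CPM in the controls and 47.5, 45.2 and 88.3 CPM in the knockouts. Every knockout library was far above every control, with a log2 fold change of 3.94 (SE 0.30, with an edgeR adjusted p of 0.000416), or 15.4-fold. In the same libraries the liver isoform Pygl lay at 269 to 522 CPM and 429 to 475 CPM and did not pass.

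Ldhb, the heart form of lactate dehydrogenase, was 2.09, 2.05 and 1.67 CPM in the controls and 9.65, 5.65 and 7.08 CPM in the knockouts (log2 fold change 1.94, SE 0.26, edgeR adjusted p = 0.00242). Gyg, glycogenin, which primes new glycogen particles, was 3.60, 4.20 and 4.36 CPM in the controls and 9.36, 8.35 and 10.8 CPM in the knockouts (log2 fold change 1.23, SE 0.19, edgeR adjusted p = 0.00369). Aldoc, the aldolase known from brain, was 13.8, 12.2 and 13.6 CPM in the controls and 20.2, 21.9 and 24.6 CPM in the knockouts (log2 fold change 0.75, SE 0.13, edgeR adjusted p = 0.00664). In these 3 genes and in Pygb the groups did not overlap, and all 4 passed in all 6 fits that left out a library. These 4 were named for their small adjusted p in the same libraries, so neither point is further support. Every knockout library lay above every control in 16 of the 45 genes (35.6%), beside 23.5% of all genes tested. Ppp1r3e, of the family that brings phosphatase to glycogen, was 5.80, 6.49 and 6.19 CPM in the controls and fell to 2.002, 3.27 and 1.96 CPM in the knockouts (log2 fold change -1.35, SE 0.26, edgeR adjusted p = 0.00859). Ppp1ca, a catalytic subunit of that phosphatase, fell by 0.51 (SE 0.13, with an edgeR adjusted p of 0.0279), and Gaa, which degrades glycogen in lysosomes, fell by 0.46 (SE 0.13, with an edgeR adjusted p of 0.0326); with library size alone both turned positive, at 0.08 and 0.14. Both passed in 2 of the 6 fits that left out a library, and Ppp1ca overlaps Rad9a on the opposite strand.

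A few genes of the list were picked out after their values were seen, because control replicate 1 was the odd library there as well. Mlxipl, which encodes the factor that switches on Pklr and other genes in response to glucose, was 414, 892 and 835 CPM in the controls and 539, 469.7 and 502 CPM in the knockouts. Its log2 fold change was -0.50 (edgeR adjusted p = 0.209), 0.07 with library size alone, and without control replicate 1 Mlxipl fell by 0.78 (edgeR adjusted p = 0.00083). Ldha, the lactate dehydrogenase of most cells, was 1821, 1030.0 and 1126 CPM in the controls, against 1232 to 1348 CPM in the knockouts, and did not pass with that library (log2 fold change -0.05) or without it (0.25, edgeR adjusted p = 0.0855). Slc16a1, a lactate transporter, was 135, 74.1 and 79.3 CPM in the controls, against 94.5 to 114 CPM in the knockouts. Its log2 fold change was 0.08 (edgeR adjusted p = 0.824), and without control replicate 1 Slc16a1 rose by 0.41 (edgeR adjusted p = 0.0273). In these 2 genes, as in Aldoa, control replicate 1 was high, whereas in Mlxipl, as in Pklr and most glycogen genes, it was low. Pgm1, counted among the glycogen genes, was high in that library, at 1.67 times the mean of the other controls. Over the 45 genes of the list, control replicate 1 was under 0.667 of the mean of the other controls in 9, a share near the 17.7% of all genes tested. The median ratio of control replicate 1 to that mean was 0.982 in the list and 0.981 over all genes tested.

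ChIP regions were read at the members in the 2 deposited lists, 1 per genotype, so there is no replicate and no test. The sample titles name RNA polymerase III as the target and the series design names Lcmr1, so the antibody's target is not settled here. The control list holds 16995 regions and the knockout list 1309, and fold values are the authors' own, over background within each list. In the control list 13 of 28 members (46.4%) had a region within 1000 bp of their start, beside 31.9% of all genes tested, and 18 (64.3%) had one in the gene, beside 39.2%. In the knockout list none had a region at the start, beside 2.01% of genes tested, and 1 of 28 (Gapdh) had one in the gene, beside 3.90%. The knockout list is short throughout, and whether that reflects the cells or the library cannot be told apart with 1 library each.

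In the control list the glycogen genes and the shared steps held most of the regions at starts. A region at the start was found in 6 of 9 glycogen genes (Gys2, Gbe1, Ugp2, Pgm2, Ppp1r3b and Ppp1r3c) and in 5 of 7 shared steps (Gpi1, Tpi1, Gapdh, Pgam1 and Eno1). Among the liver genes only Pfkl had one, and among isoforms of other tissues only Slc2a1. How this split relates to the RNA level of the genes was not tested. Aldoa and Pygl had regions centred 1512 and 3760 bp from the start in the deposited table, but 15 and 44 bp from the nearest RefSeq start. A region at the start was found in 3 of the 5 members that rose, 2 of the 4 that fell and 8 of the 19 that did not pass.

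The start region of Gapdh had a fold of 14.7 (chr6:125164934-125165796); it was centred 1102 bp from the start in the deposited table and 408 bp from the RefSeq start, and counts through the part of it that lies in the window. Eno1 had a start region with a fold of 13.8 (chr4:150236763-150237409). Ppp1r3c had one with 11.9 (chr19:36736393-36736950) and Gbe1 with 11.7 (chr16:70313909-70314707). The Ppp1r3c region was centred 18 bp upstream of the start and covers the promoter window printed above, with its E-box. The Pygl region (chr12:70227462-70227993, fold 4.52) likewise covers the window printed for Pygl. The Gpi1 region (chr7:34230090-34230339, fold 6.92) lay downstream of the start and touches only the last bases of its window.

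Some members carried many regions along the gene. Slc2a2 had 18 control regions covering 28.6% of its 33457 bp, none of them at the start, and the highest had a fold of 16.6 and was centred 8502 bp into the gene (chr3:28705610-28707200). Ugp2 had 27, covering 26.4% of 50064 bp. Among the 5932 tested genes with a control region in the gene, the median was 1 region and the 99th percentile was 25, and 106 genes had 18 or more. The 90th percentile was 5 regions, and the median cover was 2.03% of the gene. These counts are not adjusted for gene length. In Ppp1r3b 6 regions covered 83.4% of 12401 bp, of which the longest spanned 8062 bp (chr8:35381290-35389351). Gys2 had 12 regions, covering 13.7% of 50497 bp, and Gbe1 had 8, covering 1.31% of 255768 bp.

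Gapdh was the member with regions of both lists. Its 4 control regions covered 57.9% of 4753 bp, and its 3 knockout regions covered 20.6%. The knockout regions were centred 2516 to 4762 bp from the start. The one with the highest fold (7.05, chr6:125161320-125162090) crossed the end of the gene. Near Ppp1r3b the knockout list had 1 region of 404 bp past the end of the gene, within the longest control region. The members with no region in the gene in either list were Gckr, Pfkfb1, Hk1, Hk2, Pkm, Pfkp, Pfkm, Pgk1, Pgm1 and Ppp1r3g. These include 3 of the 9 members that passed the RNA test, Pfkfb1, Pkm and Pgm1. In the control list a region in the gene was found in 12 of the 19 members that did not pass (63.2%). The share was 64.3% over all members and 39.2% over all genes tested. The count of 3 thus does not set the members that passed apart.

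**Figure D4:**
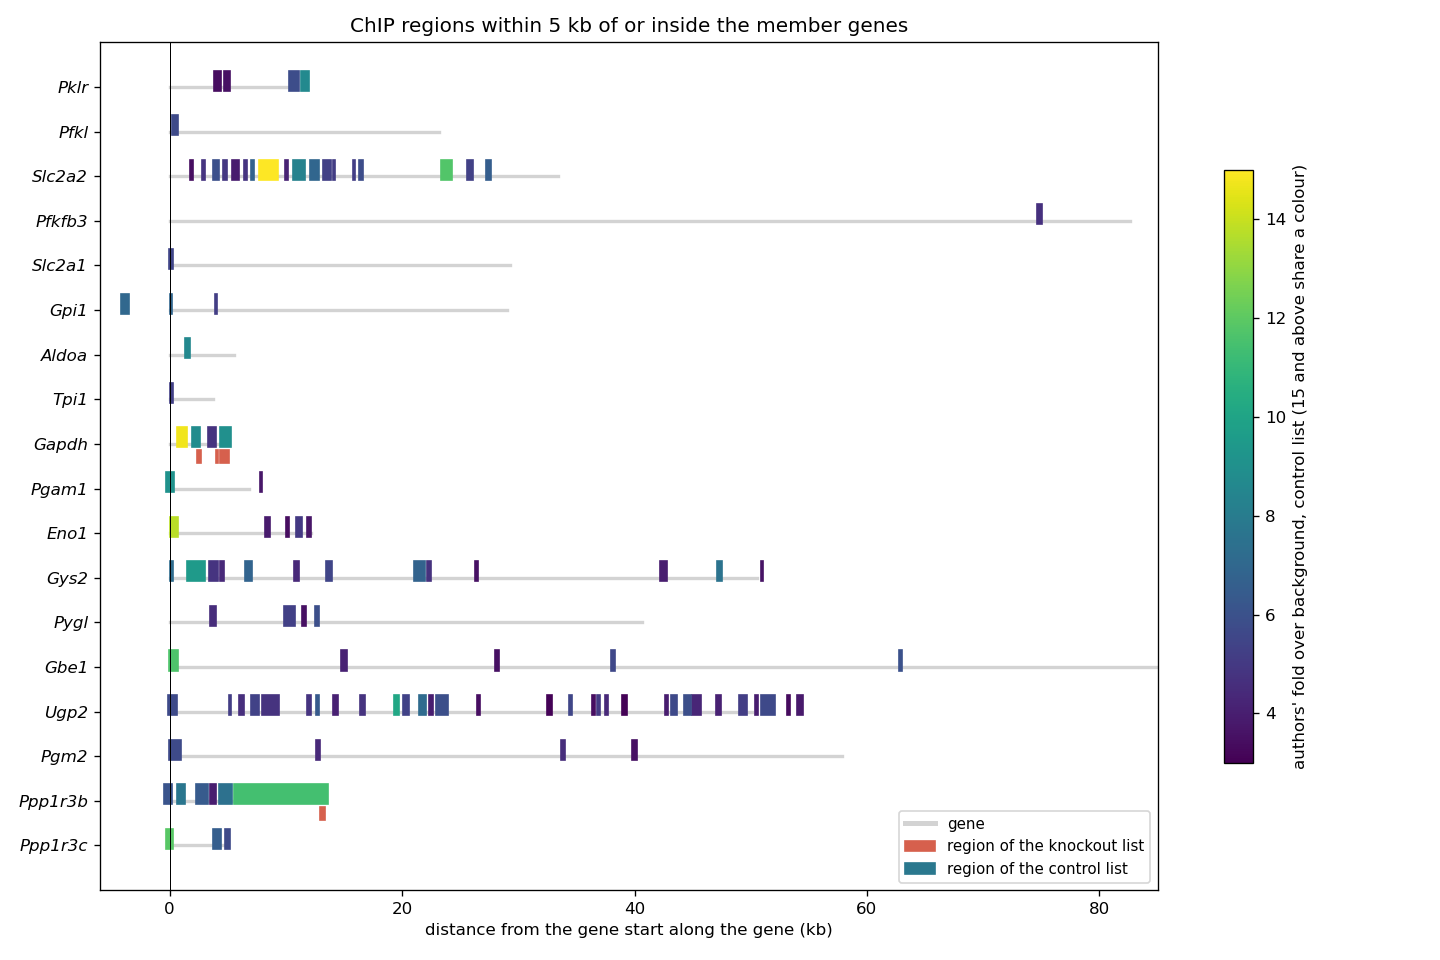
ChIP regions inside or within 5 kb of the member genes that have any, by distance from the gene start in kb; the grey line is the gene, upper boxes are control-list regions coloured by the authors' fold over background, and lower red boxes are knockout-list regions. Slc2a2 and Ugp2 carry 18 and 27 regions along the gene and Gapdh alone has knockout regions in the gene; Gbe1 runs past the right edge, and 3 of its 8 regions are not drawn.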

How the data were processed

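RNA was measured in 3 control and 3 knockout libraries and ChIP in 1 library of each genotype, grouped by the sample titles. The deposited table gives raw counts by Ensembl gene on mm10, and HISAT2 2.1.0, Bowtie2 2.2.3 and HTSeq 0.6.0 are named per the submitters' processing notes, without their roles. No source used here gives the strand setting or filters. The same deposited table holds the authors' own fold change (ratio), log2 fold change, p-value, adjusted p-value and a baseMean signal, which was not used. The deposited ChIP lists are in narrowPeak layout, called per library, with a score, a fold (ratio) and -log10 p and q values by the authors, the lowest -log10 q being 1.31 and 1.30. BWA, SAMtools and MACS2 are named without versions per the submitters' processing notes, and no source used here says whether an input was used.

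Counts were filtered with filterByExpr (minimum 10, total 15), scaled by TMM and tested two-sided with the robust quasi-likelihood test (edgeR 4.0.16, under R 4.3.3), genotype being the only term. P-values were adjusted by Benjamini-Hochberg over all 15135 genes, with a threshold of 0.05. The biological coefficient of variation was 0.235. The TMM factors were 0.772 to 0.838 in the controls and 1.20 to 1.27 in the knockouts. The procedure was tested on simulated data. Alternatives were DESeq2 1.42.0, library size alone, upper-quartile factors, no count filter, a replicate block and leaving out each library. Count ratios of 7 pairs were compared with an exact two-sided permutation test.

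ChIP rows sharing an interval were merged into 1 region, and a region counted at 1 bp of overlap within 1000 bp of the gene start or within the gene. Lengths of exons were not used, so levels are not compared between genes. Promoters came from RefSeq (GRCm38.p6), matched by current symbol; Gys2 and Ppp1r3b had no entry. All members are named; of the further pathway genes the 4 with the smallest adjusted p in each direction are, and others only where a result turns on them. The members and lists were chosen with earlier results of these data known.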

Additional observations from a re-analysis of the deposited data

How the results depend on the processing

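The signs of small changes rest on the scaling. With library size alone, 15 members rose and 1 fell, 25 further pathway genes rose and 1 fell, the members' median log2 fold change was 0.67, and over all genes 7711 rose and 617 fell. Log2 fold changes that then changed sign were those of Pklr (0.19), Slc2a1 (0.49), Gapdh (0.22), Gys2 (0.43), Gbe1 (0.11), Ugp2 (0.22) and Pgm2 (0.026). DESeq2 and upper-quartile factors each raised the further pathway genes that rose to 10, and in DESeq2 Gckr was at -0.007. Without a count filter 2 members fell. Upper-quartile factors gave 2275 genes higher and 1619 lower (58.4% of calls higher, against 49.3% with TMM).

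Leaving out 1 library gave 2 to 7 members that rose, 2 to 7 that fell, 4 to 10 further pathway genes that rose and 1 to 7 that fell, and 1119 to 2395 genes higher and 1096 to 2467 lower over all genes. The log2 fold changes ranged across 0 for Gckr (-0.141 to 0.088), Slc2a1 (-0.33 to 0.11), Pygl (-0.11 to 0.32), Ppp1r3c (-0.39 to 0.29) and Ppp1r3g (-0.062 to 0.643), as did the differences in log2 ratio of Pfkm over Pfkl (-0.18 to 0.26) and Pfkfb3 over Pfkfb1 (-0.33 to 0.68). The cause was not tested. In a window of 5000 bp, 1 member (Gapdh) had a knockout-list region at its start. That window is longer than the 4753 bp of Gapdh and takes in the knockout regions described above.

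Same-numbered libraries deviated together with correlations of 0.134, 0.05 and 0.122, so the numbers are not taken to pair them, although each library correlated best with its own number. With a replicate block 4 members rose and 3 fell (Pfkl and Gapdh did not pass), 6 further pathway genes rose and 3 fell, the median was 0.13, and 1713 genes were higher and 1755 lower over all genes; each ratio difference is the same by construction.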
